A study of Caenorhabditis elegans with 12 samples.

Results

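The comparison described here is that of *eat-2(ad465);nhr-62(tm1818)* double mutants with *eat-2(ad465)* animals, across all expressed genes of *Caenorhabditis elegans*. It uses 6 of the 12 libraries of the study, 3 from each of these genotypes, chosen by their labels alone. The other 6 libraries, from wild-type (N2) and *nhr-62(tm1818)* animals, entered the same statistical fit and are used for reference. All animals were adults of day 0 that did not yet bear eggs, grown at 20 °C on *E. coli* OP50 after synchronization by bleaching. They were picked by hand on reaching adulthood, and whether the genotypes differed in exact stage was not tested. Both genotypes compared carry *eat-2(ad465)*, a mutation in a subunit of a pharyngeal acetylcholine receptor that makes worms pump and eat less, and they differ by label in the *nhr-62* allele. The *tm1818* deletion takes out part of the first exon of *nhr-62* and with it the DNA-binding domain. Some function of the gene could remain, since not every predicted transcript is hit. Each allele is represented by the strains of the study only, and RNA came from whole animals, in which fewer cells of a type and less RNA per cell cannot be told apart.

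NHR-62 is a nuclear hormone receptor of a family that is much enlarged in nematodes and is related to mammalian HNF4α, a regulator of lipid and glucose metabolism. Nuclear hormone receptors are transcription factors that bind DNA and, in many cases, a small lipophilic ligand. In *eat-2* animals reduced feeding lengthens life, a state used as a genetic model of dietary restriction, and the study asked which part of the transcriptional response to it needs *nhr-62*. The intestine of the worm digests food, stores fat, makes yolk and carries most of the enzymes that modify lipids and foreign compounds. The hypodermis secretes the collagen cuticle.

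Transcripts were measured as read counts per gene, given below as normalized counts, which are counts scaled to a common library size. A log2 fold-change of 1 is a doubling, and every fold-change below is that of the double mutant against *eat-2* unless another comparison is named. The SE is the standard error of the log2 fold-change. Total counts were 21351152 to 26833841 in *eat-2* and 18260311 to 31180808 in the double mutant, against 44753083 in the deepest library of the series. The *nhr-62* transcript was at 137, 166 and 131 normalized counts in *eat-2* and at 88.8, 90.1 and 122 in the double mutant. All libraries of the double mutant lay below those of *eat-2*, but the log2 fold-change of -0.53 (SE 0.19) missed the threshold with an adjusted p of 0.0808 (edgeR). The *eat-2* transcript itself was at 7.15 normalized counts or fewer in each of the 6 libraries. Neither allele removes the whole gene, so its transcript can persist and these values are a weak check of the labels.

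Many more transcripts were lower than higher in the double mutant. Genes were called where the adjusted p was under 0.05 (edgeR's quasi-likelihood test with Benjamini-Hochberg adjustment over all 15344 genes tested), the change exceeded 1.5-fold and the normalized count averaged over 10 in these genotypes. By this rule 833 genes (5.43% of those tested) were called, 713 of them lower (4.65%) and 120 higher (0.782%) in the double mutant. These shares of all genes are the background for each count of called list members below. Without regard to a test, the libraries of the genotypes did not overlap for 21.8% of all genes downwards and 16.1% upwards, the background for each statement on overlap below. The lower genes were mostly of moderate level, since 25 of 713 had a mean over 1000 normalized counts and none a mean over 10000. Among the higher genes 31 of 120 were over 1000 and 9 were over 10000, vitellogenins among them. The median log2 fold-change was -1.0 among the lower and 0.87 among the higher genes, and 41 and 13 genes changed more than 4-fold. On the adjusted p alone 936 genes were lower (6.1%) and 688 higher (4.48%), so the excess of lower genes was smaller without the threshold on fold. With total counts in place of the TMM scaling, the median of all genes moved from -0.033 to -0.145 and the calls to 1400 lower and 72 higher. The number of calls also depended on single libraries. It fell from 833 to 109 without replicate 2 of the double mutant, to 286 without its replicate 3 and to 578 without its replicate 1. Without replicate 1, 2 or 3 of *eat-2* it was 469, 250 and 495. Whichever of the 6 libraries was left out, 90 genes kept their call, 67 lower and 23 higher, and these lead the account below.

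**Figure D1:**
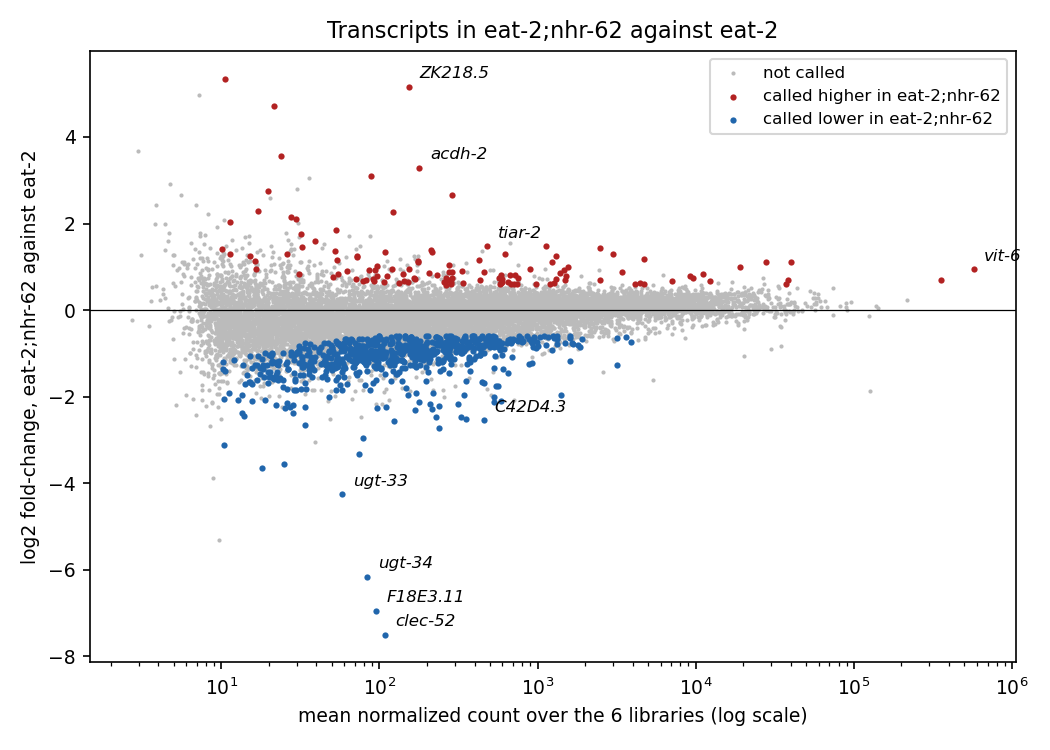
Log2 fold-change of every gene tested (vertical axis, double mutant against *eat-2*) against its mean normalized count over the 6 libraries (horizontal log axis). Grey points are genes not called, blue points the 713 called lower and red points the 120 called higher. The blue points lie mostly at moderate levels, and *clec-52*, F18E3.11, *ugt-34* and *ugt-33* lie far below the rest, while *vit-6* is the most abundant transcript called higher.

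The deepest losses were of a C-type lectin, an uncharacterized gene and 2 UDP-glycosyltransferases, which were almost absent from the double mutant. The C-type lectin *clec-52* was at 131, 286 and 232 normalized counts in *eat-2* and at 3.06, 0.901 and 0 in the double mutant. F18E3.11 was at 48.9, 271 and 246 in *eat-2* and at 0, 2.7 and 0.942 in the double mutant. Neither pair of genotypes overlapped in any library. Summed over 3 libraries, the double mutant had 3 reads of *clec-52*, and the scaled ratio of *eat-2* to the double mutant was 209 (95% exact interval 71.3 to 1018, counting error only). For F18E3.11 the double mutant had 4 reads and the ratio was 138 (53.6 to 508). Both genes were also near 0 in *nhr-62* animals that eat normally, at 0, 0.962 and 1.52 for *clec-52* against 252, 157 and 201 in wild-type, and at 5.47, 3.85 and 13 for F18E3.11 against 651, 725 and 637. Their loss therefore went with the *nhr-62* strains whether or not *eat-2* was mutated, and the *eat-2* mutation alone left *clec-52* at a log2 fold-change of 0.09 (SE 0.32, adjusted p = 0.817, edgeR). The deletion allele and other sequence carried along with it in these strains cannot be told apart from these counts.

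UDP-glycosyltransferases, which attach sugars to small lipophilic molecules and foreign compounds so that they can be cleared, behaved differently. The *ugt-33* transcript was at 113, 106 and 113 normalized counts in *eat-2*, at 6.13, 4.5 and 6.6 in the double mutant, at 16.5, 41.2 and 21.4 in wild-type and at 17.8, 33.7 and 16.8 in *nhr-62*. It thus stood high only in the *eat-2* libraries, and in the double mutant every library was below every wild-type library. The log2 fold-change was -4.25 (SE 0.40, adjusted p = 0.000292, edgeR). The *ugt-34* transcript was at 75.1, 218 and 201 in *eat-2* and at 6.13, 0.901 and 0.942 in the double mutant, and all wild-type and *nhr-62* libraries were at 3.1 or fewer. The scaled ratio of *eat-2* to the double mutant was 79.6 (36.3 to 218, counting error only). A milder fall was seen for *ugt-41*, at 447, 493 and 445 in *eat-2* and 236, 237 and 287 in the double mutant (log2 fold-change -0.86, SE 0.12, adjusted p = 0.00454, edgeR). Of 63 glycosyltransferase genes tested 7 were lower (11.1%, against 4.65% of all genes) and 2 higher (3.17%, against 0.782%). Their median log2 fold-change was -0.14. Without replicate 2 of the double mutant 3 were lower, and without replicate 2 of *eat-2* 4 were. *ugt-44* was the largest increase of the family, at 490, 677 and 640 in *eat-2* and 1122, 2818 and 1057 in the double mutant, and its call was lost without replicate 2 of *eat-2* (adjusted p = 0.0511, edgeR).

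**Figure D2:**
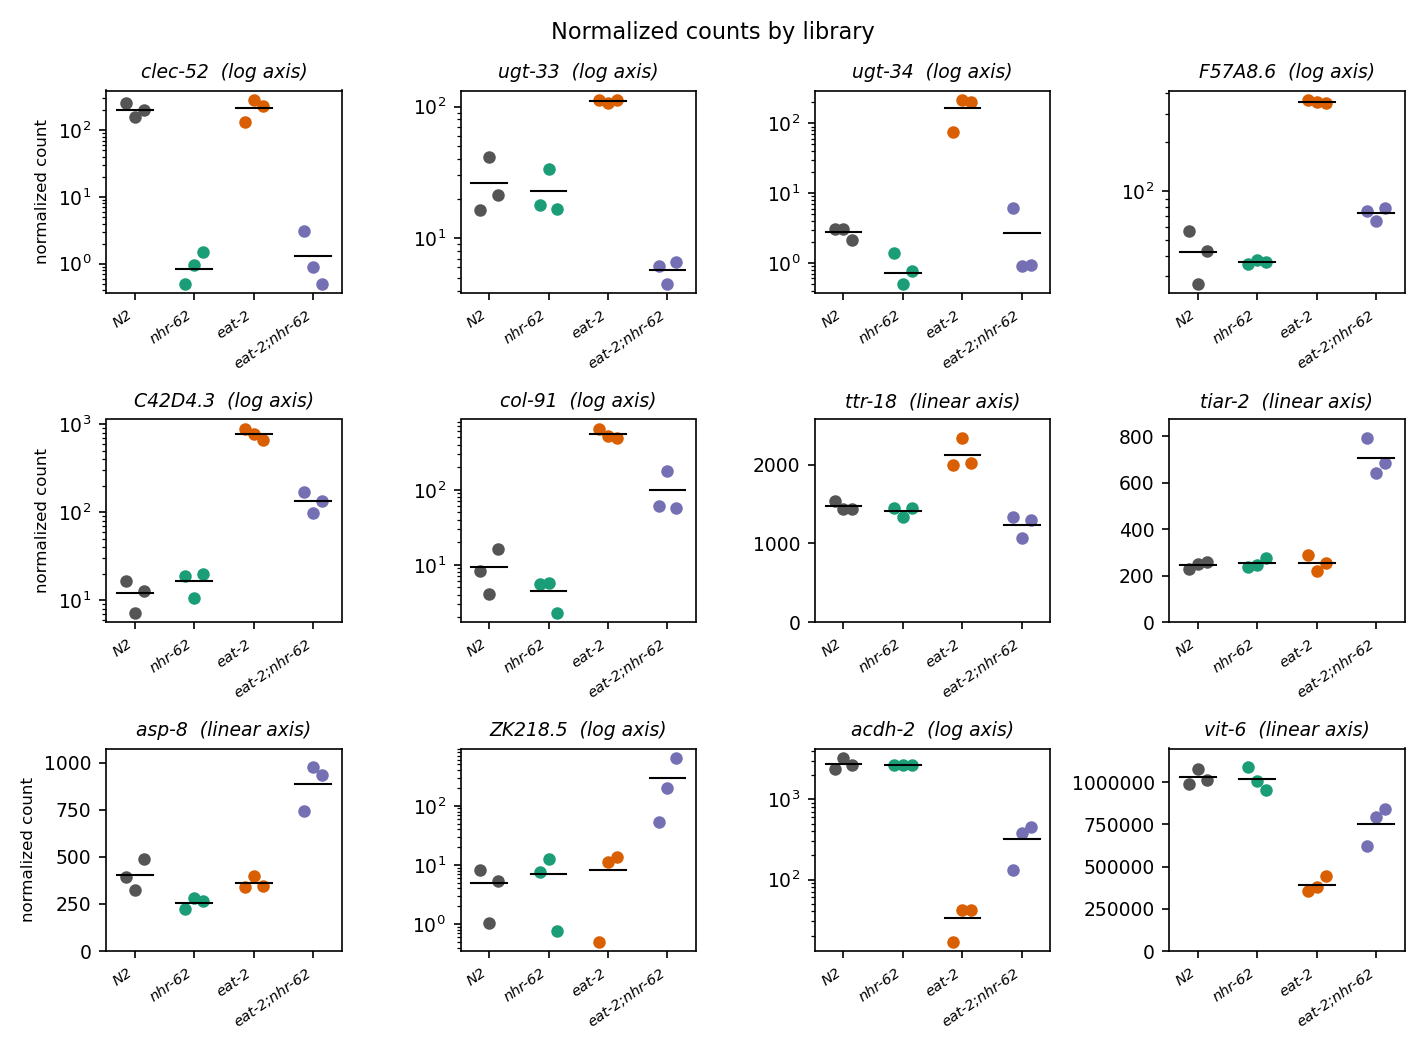
Normalized counts of 12 genes in each library (points) of the 4 genotypes, with the mean of 3 libraries as a line. Axes are logarithmic or linear from 0, as stated above each panel, and a count of 0 is drawn at 0.5 on a log axis. *clec-52* is near 0 in both *nhr-62* genotypes, and *ugt-33* and *ugt-34* are high in *eat-2* only. *tiar-2*, *asp-8* and ZK218.5 are high in the double mutant only. F57A8.6, C42D4.3, *acdh-2* and *vit-6* lie between *eat-2* and wild-type in the double mutant.

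Several further genes were high in *eat-2* and fell in the double mutant towards, but not to, the wild-type level. C42D4.3 was at 894, 776 and 659 normalized counts in *eat-2* and at 172, 99.1 and 135 in the double mutant, with 7.22 to 16.5 in wild-type (log2 fold-change -2.54, SE 0.24, adjusted p = 0.000278, edgeR). F57A8.6 was at 366, 352 and 351 in *eat-2* and at 75, 65.8 and 78.2 in the double mutant, with 26.8 to 56.8 in wild-type. Every library of the double mutant lay between those of *eat-2* and those of wild-type for both genes. T21C9.9 fell from 266, 138 and 141 to 45.9, 31.5 and 38.6, and F35B3.4 from 426, 368 and 367 to 23, 123 and 59.4. C06E8.5 fell from 365, 264 and 215 to 29.1, 78.4 and 60.3, and its exons overlap those of *prk-1* on the other strand, so their reads may not be separable. These genes have no role stated in the files. All of them kept their call whichever library was left out. The cytochrome P450 gene *cyp-37B1* had the second largest decrease by the rule used, but it was at 1042, 98 and 102 in *eat-2* and at 62.8, 61.3 and 64.1 in the double mutant. Replicate 1 of *eat-2* alone made most of this difference. The call was lost without that library (adjusted p = 0.1), when any library of the double mutant was left out (adjusted p of 0.0832 to 0.151, edgeR) and with DESeq2's test. The hedgehog-related *grl-21* was at 889, 471 and 432 in *eat-2* and 227, 41.4 and 58.4 in the double mutant, and lost its call when any of 4 libraries was left out, replicates 1 and 2 of *eat-2* and 2 and 3 of the double mutant (adjusted p up to 0.107, edgeR). Y47D7A.15 fell from 310, 166 and 159 to 12.3, 67.6 and 23.6, and lost its call whichever library was left out (adjusted p of 0.0638 to 0.119, edgeR).

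Cuticle genes made up a visible share of the decreases. Of 130 cuticle collagen genes tested, 25 were lower (19.2%, against 4.65% of all genes) and 2 higher, and the median log2 fold-change was -1.01. The members *col-91*, *col-137* and *col-113* kept their call whichever library was left out. *col-91* was at 652, 525 and 487 normalized counts in *eat-2* and at 61.3, 177 and 57.5 in the double mutant, *col-137* at 176, 128 and 115 and at 12.3, 31.5 and 8.48. *col-113* went from 355, 277 and 232 to 55.1, 83.8 and 57.5 (log2 fold-change -2.13, SE 0.21, adjusted p = 0.000367, edgeR). Wild-type libraries stood at 16 or fewer for *col-91* and *col-137* and at 36.1 or fewer for *col-113*. These collagens are thus minor transcripts of a wild-type young adult that were higher in *eat-2*. The summed counts of the collagen list overlapped, at 729644 to 806573 in *eat-2* and 653436 to 898067 in the double mutant. Some collagens at higher levels were called lower, such as *col-159* (mean 4507 in *eat-2* and 1890 in the double mutant). *col-101* was called higher (7167 and 12048). Each of these 2 calls was lost when any of 5 libraries was left out. *col-135* rose, from 1377, 1341 and 1294 to 1850, 3739 and 5293, a call lost without replicate 2 of the double mutant (adjusted p = 0.0532, edgeR). Collagen transcripts varied between libraries of a genotype, and the number called lower was 26 without replicate 1 of the double mutant, 6 without its replicate 2 and 5 without its replicate 3, and 12, 11 and 14 without replicate 1, 2 or 3 of *eat-2*.

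Some genes of the extracellular matrix and of the pharyngeal lining were lower too. The *abu* and *pqn* genes, many of which encode repeat proteins of the pharyngeal cuticle, had 14 of 58 members lower (24.1%) and 1 higher, with a median of -0.27. By the adjusted p alone 8 of the 58 were higher, where 4.48% of all genes were. The summed counts of the list, 87865 to 103976 in *eat-2* and 102094 to 112479 in the double mutant, overlapped and did not follow the median. *abu-10* was at 169, 128 and 124 normalized counts in *eat-2* and at 42.9, 54.1 and 33 in the double mutant, and *abu-11* at 240, 185 and 176 and at 81.2, 93.7 and 64.1. Their libraries did not overlap between genotypes, and both kept their call whichever library was left out, although the number of members called lower was 8, 2 and 2 without replicate 1, 2 or 3 of the double mutant and 6, 6 and 11 without those of *eat-2*. Of 28 astacin and matrix metalloproteases, enzymes that cut matrix proteins, 6 were lower (21.4%) with a median of -0.72. *nas-7* was at 156, 233 and 198 in *eat-2* and 87.3, 74.8 and 99 in the double mutant, and *zmp-1* at 114, 120 and 119 and at 65.8, 46.8 and 72.6. Both lost their call without replicate 2 of the double mutant (adjusted p of 0.0512 and 0.0748, edgeR), when 2 members of the list were called lower. Leaving out another library gave 3 to 5. Exons of both overlap genes on the other strand. Among 28 hedgehog-related genes 2 were lower (7.14%, against 4.65% of all genes). Of these, *grd-14*, of the ground subfamily, went from 389, 365 and 307 to 107, 174 and 114, below all wild-type libraries of 178 to 253 (log2 fold-change -1.41, SE 0.22, adjusted p = 0.00665, edgeR). 26 of these 28 genes had a negative log2 fold-change, with a median of -0.5 where that of all genes was -0.033.

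**Figure D3:**
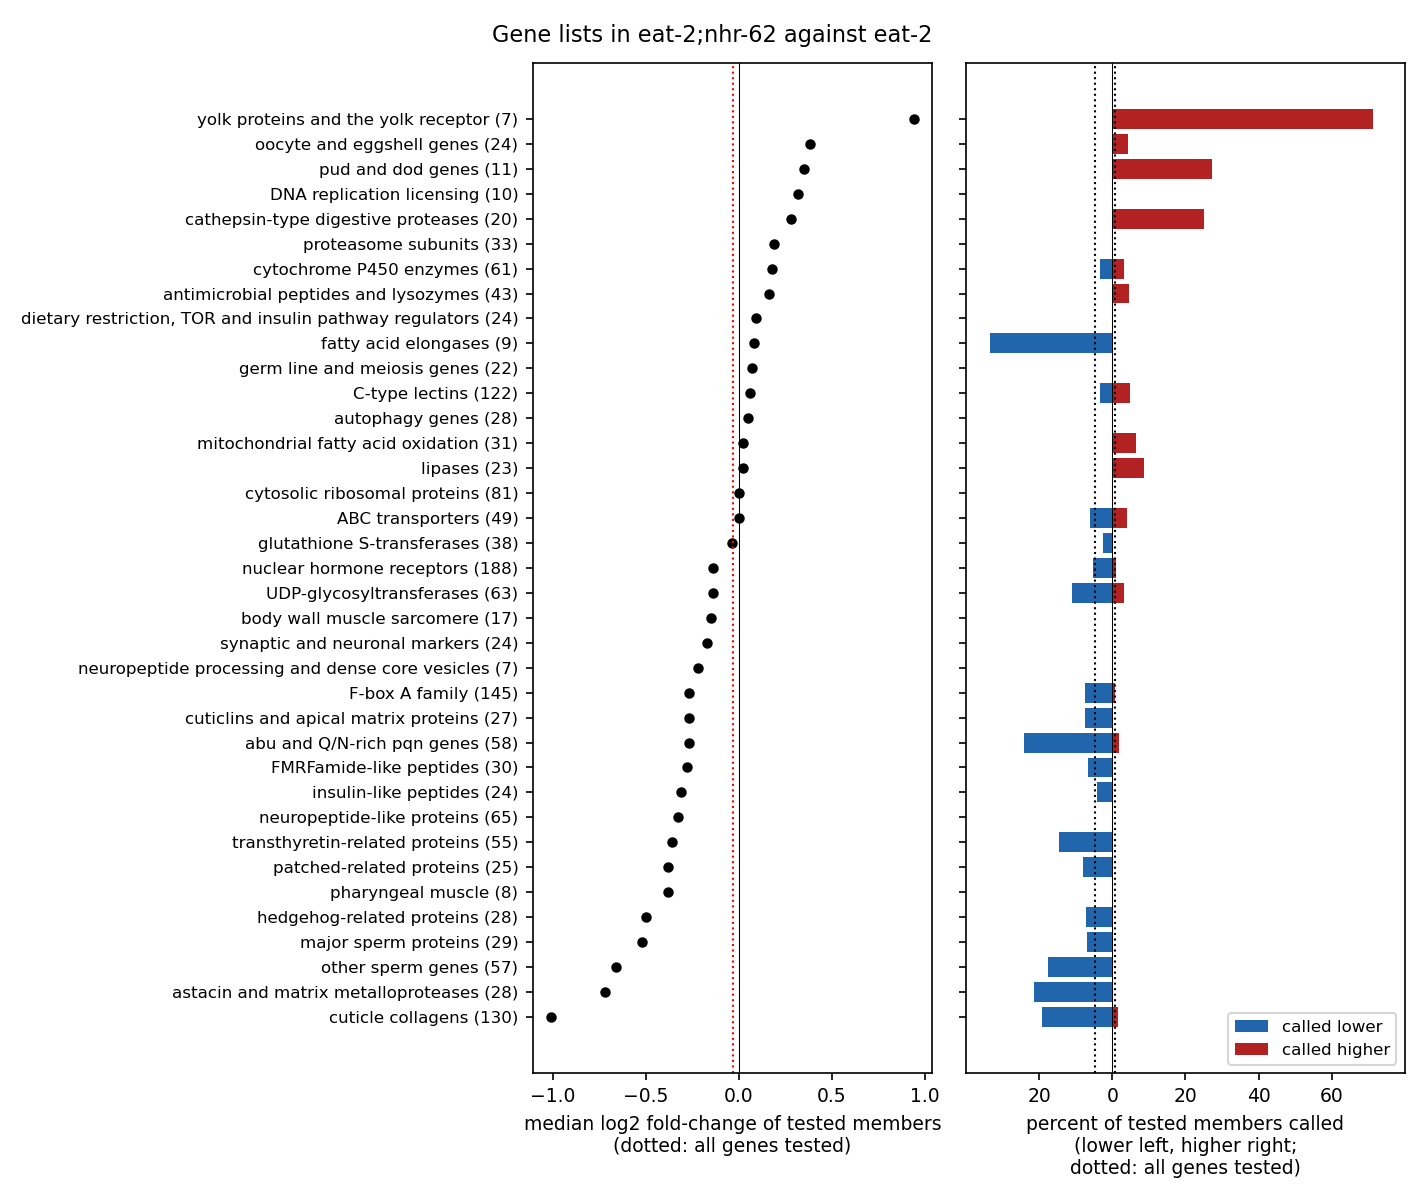
Median log2 fold-change of the tested members of gene lists (left, number of members in brackets) and the percent of members called lower (blue) or higher (red) in the double mutant against *eat-2* (right). Dotted lines give the same values over all 15344 genes tested, a median of -0.033 and 4.65% lower and 0.782% higher. Yolk, oocyte, *pud* and *dod*, replication licensing and cathepsin lists stand at the top, and collagens, metalloproteases and sperm genes at the bottom. Some of the lists are not drawn.

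Sperm transcripts were lower in the double mutant. Of 57 sperm genes other than the major sperm proteins, 10 were lower (17.5%, against 4.65% of all genes) and none higher. Their median was -0.66, with a negative log2 fold-change in 53. Major sperm proteins, the motor proteins of nematode sperm, had 2 of 29 members lower (6.9%, near the 4.65% of all genes). Their median was -0.52, and all 29 had a negative log2 fold-change. The summed normalized counts of the sperm list were 40241 to 49274 in *eat-2*, 28583 to 38714 in the double mutant, 19730 to 37119 in wild-type and 22703 to 27947 in *nhr-62*. The double mutant thus lay below *eat-2* with no overlap and within the wild-type range apart from replicate 1. The transporter *snf-10*, which acts in sperm activation, was at 259, 258 and 237 in *eat-2* and at 133, 118 and 141 in the double mutant. The sperm-carried toxin gene *peel-1* was at 169, 151 and 120 and at 67.4, 37.8 and 68.8, and the sperm calcium channel gene *spe-41* at 968, 790 and 791 and at 571, 387 and 558. All of these were separate between genotypes, but no sperm call was stable: *snf-10* lost it without replicate 2 of the double mutant (adjusted p = 0.0761, edgeR), *peel-1* when any of 4 libraries was left out (adjusted p of 0.053 to 0.124) and *spe-41* whichever was left out (0.0583 to 0.164). Without replicate 2 of the double mutant no member of the sperm list was called, and without its replicate 1, which has the most sperm reads of its genotype, 3 were. Without its replicate 3, or replicate 1, 2 or 3 of *eat-2*, there were 1, 1, 1 and 2. The 2 major sperm protein calls, *msp-78* and *msp-42*, were lost without most libraries, and reads of these near-identical genes may be assigned to the wrong copy because 1 alignment was kept per read.

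Transcripts of oocytes and the eggshell went the other way. All 24 oocyte and eggshell genes tested had a positive log2 fold-change, with a median of 0.38 that was 0.27 under total count scaling, and 18 passed the adjusted p alone (4.48% of all genes did so in this direction). Only *perm-2*, which encodes a protein of the outer eggshell layers, also passed the threshold on fold. It was at 9140, 9431 and 9691 normalized counts in *eat-2* and at 15166, 14844 and 15184 in the double mutant, just below its 15847, 17753 and 16606 in wild-type (log2 fold-change 0.68, SE 0.11, adjusted p = 0.00721, edgeR). Its call was lost under total count scaling, and its exons overlap a gene on the other strand. Summed counts of the list were 335218 to 382312 in *eat-2*, 472161 to 489539 in the double mutant and 456889 to 522356 in wild-type. All 10 replication licensing genes were also positive, with a median of 0.32, and 4 passed the adjusted p, *mcm-4* among them at 6293, 5271 and 6099 in *eat-2* and 8313, 8295 and 7718 in the double mutant. Of 33 proteasome subunits 32 were positive and 10 passed the adjusted p, with a median of 0.19. These small shifts were sensitive to single libraries and to scaling. Without replicate 2 of the double mutant 6 oocyte genes, no licensing gene and no proteasome gene passed, and with total counts 12, 2 and 1 did so upwards and 1 proteasome gene downwards. Leaving out another library gave 12 to 20 oocyte, 2 to 4 licensing and 2 to 5 proteasome genes. The 22 germ line and meiosis genes tested did not share the rise clearly. None was called, and their median was 0.07, or -0.04 under total counts. By the adjusted p alone 3 were higher, and none when any library but replicate 1 of *eat-2* was left out. Under total counts none was higher and 1 was lower.

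**Figure D4:**
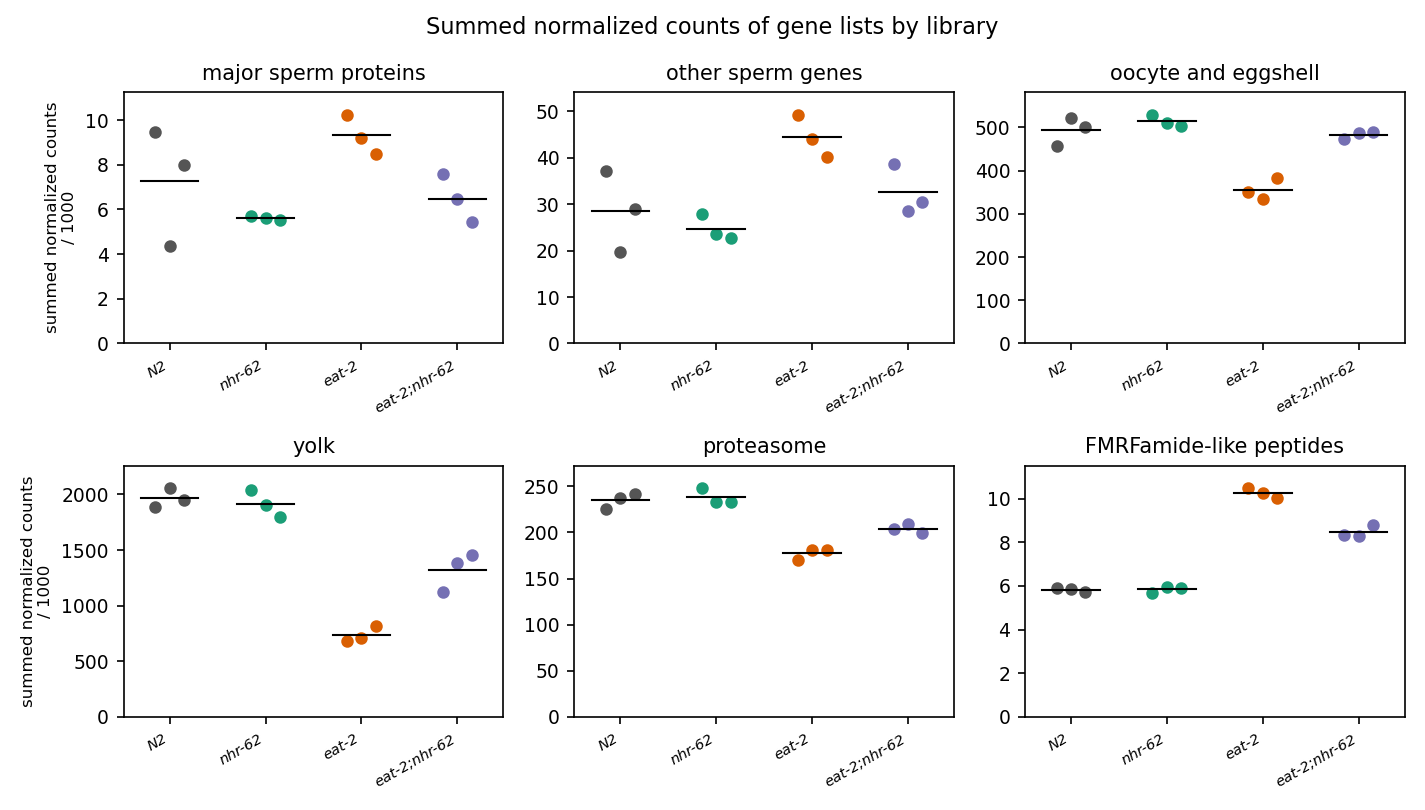
Normalized counts summed over 6 gene lists in each library (points, divided by 1000) of the 4 genotypes, with the mean of 3 libraries as a line and axes from 0. Sums of sperm genes and FMRFamide-like peptide genes are lower in every library of the double mutant than in any *eat-2* library, and sums of oocyte, yolk and proteasome genes are higher.

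Yolk protein transcripts rose in the double mutant. Vitellogenins are lipoproteins made in the intestine and taken up by oocytes. Of 7 yolk genes tested, counting the yolk receptor, 5 were higher (71.4%, against 0.782% of all genes) and the median log2 fold-change was 0.94. *vit-6* was at 355483, 377316 and 442284 normalized counts in *eat-2* and at 621964, 792526 and 840267 in the double mutant, with 990371 to 1076951 in wild-type (log2 fold-change 0.94, SE 0.14, adjusted p = 0.00598, edgeR). *vit-2* went from 266877, 257495 and 286238 to 389206, 453101 and 479005, and *vit-5* from 21035, 25758 and 29395 to 42602, 61024 and 60624. No library of the double mutant overlapped *eat-2*, and all lay below wild-type. *vit-1* was at 13020, 23587 and 27640 in *eat-2* and at 31718, 35481 and 30743 in the double mutant, and missed the threshold (log2 fold-change 0.61, SE 0.21, adjusted p = 0.0713, edgeR). *vit-2*, *vit-5* and *vit-6* kept their calls whichever library was left out, whereas *vit-3* lost its call without replicate 2 of the double mutant (adjusted p = 0.0805, edgeR) and *vit-4* without its replicates 2 or 3 or without replicate 2 of *eat-2* (adjusted p of 0.0511 to 0.0835). Without replicate 2 of the double mutant 3 yolk genes were called. Vitellogenin genes are similar in sequence, and the reads of *vit-3*, *vit-4* and *vit-5* may be mixed.

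Digestive proteases of the cathepsin type, which the intestine secretes into its lumen or sends to lysosomes, also rose. Of 20 tested 5 were higher (25%, against 0.782% of all genes) and none lower, with a median of 0.28. The cathepsin B-like *cpr-9* was at 10845, 14188 and 13118 normalized counts in *eat-2* and at 20421, 28449 and 26857 in the double mutant, with 22217 to 28218 in wild-type (log2 fold-change 0.99, SE 0.15, adjusted p = 0.00648, edgeR). The aspartic protease *asp-12* was at 209, 164 and 174 in *eat-2* and at 292, 483 and 338 in the double mutant, far below its 1025, 1246 and 1106 in wild-type. *asp-8*, of the same family, was at 340, 401 and 345 in *eat-2* and at 744, 978 and 937 in the double mutant, above all wild-type libraries (325 to 488). These 3 kept their call whichever library was left out. *asp-1* and *asp-6* were also called and lost it without replicate 2 of the double mutant, among others, when 3 of the list were called.

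In mitochondrial fatty acid oxidation, 2 of 31 genes tested were higher (6.45%, against 0.782% of all genes) and none lower. The median of the list was 0.02, or -0.09 under total counts. The acyl-CoA dehydrogenase *acdh-2* was at 16.7, 41.6 and 41.6 normalized counts in *eat-2* and at 132, 383 and 459 in the double mutant (log2 fold-change 3.29, SE 0.42, adjusted p = 0.00223, edgeR). It stood at 2427, 3322 and 2677 in wild-type and at 2688, 2682 and 2726 in *nhr-62*, so the double mutant regained only a small part of the level that *eat-2* animals lacked. Exons of *acdh-2* overlap those of *ins-13* on the same strand. The enoyl-CoA hydratase *ech-7* was at 545, 929 and 877 in *eat-2* and at 1591, 1860 and 1599 in the double mutant, close to its 1872 to 2230 in wild-type (log2 fold-change 1.1, SE 0.17, adjusted p = 0.00721, edgeR). Both kept their calls whichever library was left out. The acyl-CoA synthetase *acs-2* went from 113, 91.6 and 128 to 234, 239 and 253, against 1518 to 2536 in wild-type. Its libraries did not overlap, but its call was lost whichever library was left out (adjusted p of 0.0598 to 0.125, edgeR) and under total counts.

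Genes that handle and build lipids gave single changes in both directions. Of 23 lipases 2 were higher (8.7%, against 0.782% of all genes) and none lower. The predicted lipase C40H1.8 was at 137, 155 and 149 normalized counts in *eat-2*, at 236, 304 and 261 in the double mutant and at 29.9, 44.3 and 33.1 in wild-type. It was thus higher in *eat-2* than in wild-type and higher again in the double mutant (log2 fold-change 0.86, SE 0.16, adjusted p = 0.0149, edgeR), a call lost without replicate 2 of the double mutant (adjusted p = 0.0753). By qPCR the study reported the reverse for the double mutant, a weaker induction of this transcript than in *eat-2*. The hormone-sensitive lipase *hosl-1* went from 482, 626 and 580 to 743, 929 and 881, at the level of wild-type, with a log2 fold-change of 0.60 at the edge of the fold threshold, and lost its call without replicate 1 of *eat-2* or replicates 2 or 3 of the double mutant and under total counts. Of 9 fatty acid elongases 3 were lower (33.3%, against 4.65% of all genes). The median of the list was 0.08, or -0.04 under total counts. *elo-7* was at 122, 130 and 120 in *eat-2* and at 59.7, 51.4 and 66 in the double mutant, and *elo-8* at 432, 398 and 371 and at 248, 161 and 221. Their libraries were far apart, but without replicate 2 of either genotype none of the 3 was called (adjusted p up to 0.101 for *elo-7* and 0.111 for *elo-8*, edgeR), and without replicate 3 of the double mutant *elo-7* alone was. The Δ12 desaturase *fat-2* was at 38725, 39077 and 39603 in *eat-2* and at 27846, 25207 and 35740 in the double mutant, which passed the adjusted p and not the fold (log2 fold-change -0.40, SE 0.12, adjusted p = 0.0498, edgeR). The acyltransferase *acl-12* fell from 1123, 1143 and 1005 to 628, 716 and 711 and kept its call whichever library was left out. Among lipid-binding proteins *lbp-8* was at 1.19, 12.9 and 19.6 in *eat-2* and at 29.1, 70.3 and 45.2 in the double mutant, a call lost without replicate 2 of *eat-2* and replicates 2 or 3 of the double mutant (adjusted p of 0.0566 to 0.128, edgeR), and *lbp-7* at 1181, 993 and 939 and at 614, 746 and 674, a call lost whichever library was left out (adjusted p of 0.0508 to 0.0942, edgeR).

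A subset of the genes called was not called in *eat-2* alone. Not called in *eat-2* against wild-type were 43 of the 120 higher and 69 of the 713 lower genes. That comparison called 27.5% of the genes tested and uses the same *eat-2* libraries. Restricted to an adjusted p of 0.05 or more there, 32 higher and 42 lower genes remained. The RNA-binding protein gene *tiar-2*, a TIA-1 homolog, was at 290, 218 and 256 normalized counts in *eat-2*, at 793, 641 and 686 in the double mutant, at 228, 252 and 259 in wild-type and at 238, 246 and 277 in *nhr-62*. It was steady in 3 genotypes and rose in the double mutant only (log2 fold-change 1.47, SE 0.13, adjusted p = 0.000278, edgeR). ZK218.5 was at 0, 11.1 and 13.5 in *eat-2* and at 53.6, 196 and 650 in the double mutant, with at most 12.5 in wild-type and *nhr-62*, so its level was raised in every library but differed widely among them. *asp-8*, given above with the other proteases, belongs to the same group. F23F12.12 was lower in the double mutant, at 153, 168 and 322 against 530, 800 and 713 in *eat-2* and 914, 757 and 764 in wild-type, and its exons overlap *acr-5* on the other strand. At 336, 446 and 583 its *nhr-62* libraries were also all below wild-type (log2 fold-change -0.84, SE 0.26), without a call there. Those 4 and *clec-52* kept their call whichever library was left out.

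The other genes of this subset with the largest changes lost their calls when certain single libraries were left out. The C-type lectin *clec-169* was at 40.5, 99 and 97.8 normalized counts in *eat-2* and at 103, 710 and 689 in the double mutant, where replicate 1 hardly exceeded *eat-2*. Its call was lost without replicate 2 of *eat-2* or replicates 2 or 3 of the double mutant (adjusted p of 0.0582 to 0.0916, edgeR). C23H3.9 was at 190, 81.4 and 81.9 and at 288, 359 and 269, a call lost without replicate 2 of either genotype (adjusted p of 0.0571 and 0.08). K09D9.1 was at 84.6, 142 and 139 and at 231, 440 and 259. The collagens *col-180* (378, 221 and 210 against 107, 70.3 and 40.5) and *col-149* (981, 822 and 805 against 417, 162 and 210) were lower. So were C45B2.2, at 288, 284 and 269 against 150, 86.5 and 107, and F44E2.4, at 246, 106 and 128 against 36.8, 70.3 and 61.3. Genes with overlapping libraries were left out by the rule that chose these. *col-180* lost its call without replicates 2 or 3 of the double mutant, and K09D9.1, *col-149*, C45B2.2 and F44E2.4 without 4 or 5 of the 6 libraries (adjusted p up to 0.182, edgeR).

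Few neuropeptide genes were called. Of 30 FMRFamide-like peptide genes, 28 had a negative log2 fold-change with a median of -0.28, 2 were lower by all thresholds (6.67%, against 4.65% of all genes) and 6 by the adjusted p alone. Leaving out 1 library gave 2 to 4 by the adjusted p, and total counts 15. Their summed counts were 10017 to 10465 in *eat-2* and 8263 to 8783 in the double mutant, both above the 5724 to 5915 of wild-type. *flp-18* was at 495, 408 and 446 in *eat-2* and at 247, 280 and 262 in the double mutant, near its 208 to 222 in wild-type (log2 fold-change -0.77, SE 0.11, adjusted p = 0.00557, edgeR), and kept its call whichever library was left out. *flp-21*, which encodes a ligand of the receptor NPR-1, was at 159, 178 and 186 and at 123, 107 and 118, and its log2 fold-change of -0.59 sat at the fold threshold. It was lost under DESeq2's size factors, DESeq2's test and no filter and without 5 of 6 libraries (adjusted p up to 0.149, edgeR). None of 65 neuropeptide-like protein genes was called, and 6 passed the adjusted p downwards, or 1 to 4 with 1 library left out and 18 under total counts. Of 24 insulin-like peptide genes 1, *ins-37*, was lower, and this call was lost whichever library was left out. The 24 synaptic markers had no call and a median of -0.17, and their summed counts overlapped, at 20328 to 21960 in *eat-2* and 21394 to 22394 in the double mutant.

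Several large families held stable decreases of single members. Transthyretin-related proteins, small secreted proteins of nematodes, had 8 of 55 genes lower (14.5%) and none higher, with a median of -0.36, and 5 to 7 remained lower whichever library was left out. *ttr-18* was at 1996, 2340 and 2023 normalized counts in *eat-2* and at 1338, 1065 and 1302 in the double mutant, below its 1435 to 1541 in wild-type (log2 fold-change -0.78, SE 0.09, adjusted p = 0.00148, edgeR). *ttr-59* went from 749, 746 and 660 to 390, 334 and 472. Among 145 F-box A genes, a rapidly evolving family of substrate adaptors for ubiquitin ligases, 11 were lower (7.59%) and 1 higher (0.69%). The shares of all genes were 4.65% and 0.782%. *fbxa-125* went from 161, 141 and 127 to 52.1, 35.1 and 52.8 (log2 fold-change -1.62, SE 0.20, adjusted p = 0.00173, edgeR), and leaving out 1 library gave 2 to 7 lower, with the fewest without replicate 2 of the double mutant and 4 without replicate 2 of *eat-2*. Of 188 nuclear hormone receptor genes 10 were lower (5.32%) and 2 higher (1.06%), shares near the 4.65% and 0.782% of all genes, and 1 to 8 were lower when 1 library was left out. *nhr-12*, the one left without replicate 2 of the double mutant, was at 715, 628 and 693 in *eat-2* and 329, 371 and 428 in the double mutant, at its wild-type level of 334 to 448. Of 122 C-type lectins 6 were higher (4.92%, against 0.782% of all genes) and 4 lower (3.28%, below the 4.65% of all genes). Without replicate 2 of either genotype 1 was higher, and without replicate 3 of the double mutant 2 were. *clec-47* rose from 951, 1088 and 1063 to 1782, 2021 and 2408, and *clec-142* fell from 81.1, 102 and 80.7 to 44.4, 35.1 and 42.4, both to about the wild-type level. The glutathione S-transferase *gst-21* fell from 78.7, 104 and 103 to 30.6, 19.8 and 37.7 and was the only one of its 38 relatives to be called. *ttr-18*, *ttr-59*, *fbxa-125*, *nhr-12*, *clec-47*, *clec-142* and *gst-21* kept their call whichever library was left out.

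Other processes tied to dietary restriction and growth held no call. None of 28 autophagy genes, 24 regulators of dietary restriction, TOR and insulin signalling, 22 genes of peroxisomal oxidation, 19 heat shock genes, 81 cytosolic ribosomal protein genes or 44 respiratory chain genes was called, and their medians lay between -0.01 and 0.09, or between -0.12 and -0.02 under total counts. By the adjusted p alone 1 autophagy gene and 2 of the 24 regulators were higher. The autophagy gene *atg-3*, a conjugating enzyme of autophagy, was higher at 1521, 1299 and 1295 normalized counts against 1153, 1078 and 1019 in *eat-2* (log2 fold-change 0.34, SE 0.08, adjusted p = 0.0257, edgeR). The autophagosome marker *lgg-1* was at 18718, 13303 and 12059 in *eat-2* and at 12180, 11013 and 11876 in the double mutant. Its log2 fold-change was -0.33 (SE 0.14, adjusted p = 0.12, edgeR), and replicate 1 of *eat-2* stood apart from the others. Muscle lists held no call either, although 15 of 17 body wall muscle genes and 7 of 8 pharyngeal muscle genes were negative, with medians of -0.15 and -0.38. Of the pharyngeal genes 3 were lower by the adjusted p alone, and none without replicate 2 or 3 of either genotype.

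Of the 38 genes that the study names, 12 were higher and 14 lower. This list was chosen in part on these samples, so its count is no independent evidence. Other members, such as C40H1.8, came from RNAi screens or qPCR of the study. Besides the genes given above, ZC155.2 fell from 87, 80.5 and 63.6 normalized counts to 35.2, 27.9 and 30.2, with 20.6 to 26.7 in wild-type, and kept its call whichever library was left out. The monoamine oxidase-like *amx-2* fell from 1009, 929 and 954 to 732, 539 and 579 and lost its call without replicates 2 or 3 of the double mutant (adjusted p of 0.0763 and 0.0533, edgeR). C09B8.4 rose from 5.96, 7.4 and 18.3 to 21.4, 62.2 and 49.9, against 156 to 273 in wild-type, and lost its call without replicate 2 of either genotype (adjusted p up to 0.0829). The ABC transporters *wht-5* (575, 544 and 523 against 283, 173 and 291) and *wht-9* (70.3, 62.9 and 55 against 26, 24.3 and 36.8) and the phosphatase *ptp-5.2* (412, 324 and 305 against 198, 131 and 200) were lower with no overlap, and each lost its call whichever library was left out (adjusted p of 0.0544 to 0.168, edgeR).

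In animals that eat normally far fewer genes were called for the same mutation. The numbers of calls were not tested against each other, and the interaction described below compares the effects gene by gene. In *nhr-62* against wild-type, which shares no library with the comparison above, 16 genes were called (0.104%) and 17 passed the adjusted p, against 489 at an unadjusted p under 0.05. Of these 17 genes 12 had the same sign in both backgrounds and 5 were among the 833 called with *eat-2*, *clec-52*, F18E3.11, C08F11.7, *fbxa-193* and *asp-12*. C08F11.7 was at 72.7, 78.6 and 74.6 normalized counts in *eat-2* and at 29.1, 23.4 and 35.8 in the double mutant, and at 89.8, 109 and 151 in wild-type and 26, 15.4 and 25.9 in *nhr-62*. It was low in both *nhr-62* genotypes, though its call with *eat-2* was lost without replicate 2 of the double mutant (adjusted p = 0.0777, edgeR). The protease *asp-12* had opposite signs, being lower in *nhr-62* (509, 510 and 462) than in wild-type and higher in the double mutant than in *eat-2*. Across all genes called lower with *eat-2*, 530 of 713 (74.3%) also had a negative log2 fold-change in *nhr-62* against wild-type, with a median of -0.19, where 52.4% of all genes did. Among the genes called higher 62 of 120 (51.7%) were positive there, where 47.5% of all genes were. In *nhr-62* against wild-type, 52 of 57 sperm genes and 28 of 29 major sperm protein genes were negative, with medians of -0.30 and -0.43. Of the collagens 103 of 130 were, with a median of -0.21. None of these list members was called there. These lists supplied few of the 713 lower genes, with 10 sperm, 2 major sperm protein and 25 collagen genes. Summed counts of the sperm list overlapped, at 19730 to 37119 in wild-type and 22703 to 27947 in *nhr-62*. The part of sperm content in the other genes was not tested.

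**Figure D5:**
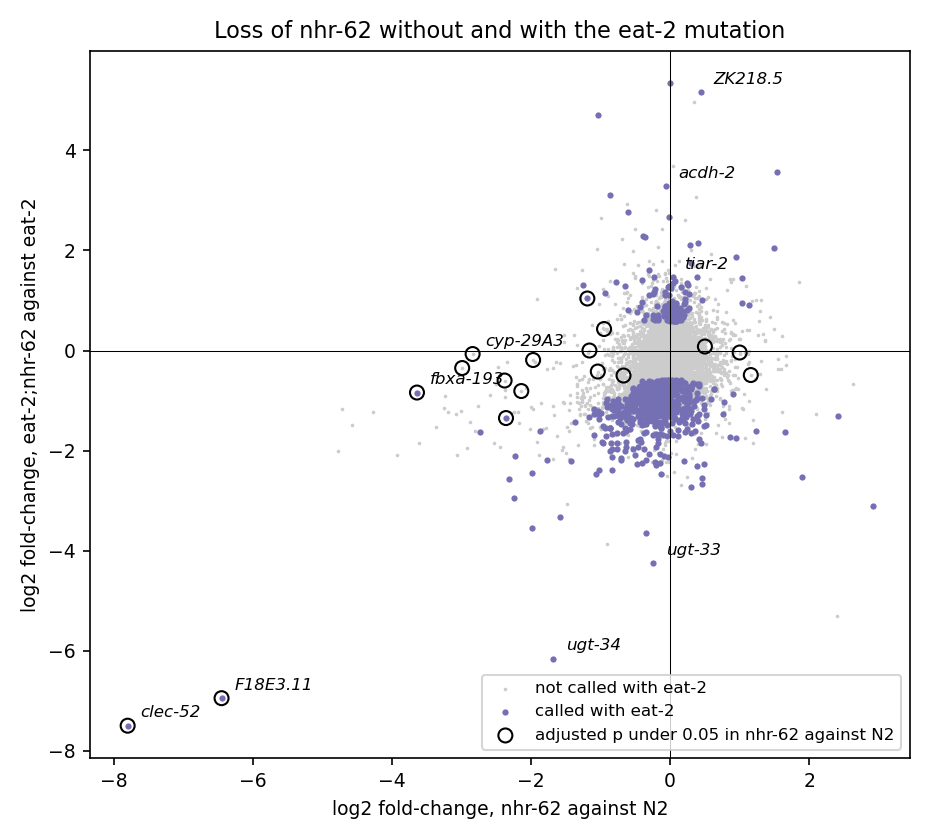
Log2 fold-change of every gene tested with the *eat-2* mutation (vertical axis, double mutant against *eat-2*) against that without it (horizontal axis, *nhr-62* against wild-type). Violet points are the 833 genes called with *eat-2*, and circles mark the 17 genes with an adjusted p under 0.05 without it. *clec-52* and F18E3.11 lie at the lower left in both, while *ugt-33*, *tiar-2*, *acdh-2* and ZK218.5 lie near 0 on the horizontal axis.

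Whether the effect of *nhr-62* differed between backgrounds was tested gene by gene as an interaction. At an adjusted p under 0.05, 40 genes differed (0.261%), and 33 of them were among the 833 called, 21 lower and 12 higher. The called genes were chosen on 1 of the 2 differences that enter this test, so their share says nothing further. DESeq2 put the number at 344. Genes that differed included *ugt-33*, whose log2 fold-change was -4.25 with *eat-2* and -0.24 without it. Others were C42D4.3 with -2.54 and 0.46, *acdh-2* with 3.29 and -0.06, and *tiar-2* with 1.47 and 0.04. *clec-52* and F18E3.11, which fell most without *eat-2*, had similar values with it (interaction adjusted p of 0.922 and 0.868, edgeR). Some other genes had a fall without *eat-2* that was smaller or not seen with it. The cytochrome P450 gene *cyp-29A3* was at 14.4, 17.3 and 24.4 normalized counts in *nhr-62* against 142, 142 and 119 in wild-type, but at 110, 107 and 123 in the double mutant against 91.8, 146 and 119 in *eat-2*. Its low level was thus seen in the *nhr-62* single mutant only (interaction 2.77, SE 0.31, adjusted p = 0.00285, edgeR). *fbxa-192* and *fbxa-193* had log2 fold-changes of -2.99 and -3.64 without *eat-2* and of -0.35 and -0.84 with it (interaction adjusted p of 0.0012 and 0.00217, edgeR), and the call of *fbxa-193* with *eat-2* was lost when any of 5 libraries was left out (adjusted p of 0.0508 to 0.113).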

How the data were processed

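The deposited table holds whole-number counts of reads per gene for 12 libraries, 3 for each of 4 genotypes. The authors aligned single-end reads with TopHat 1.3, keeping 1 alignment per read, counted them with HTSeq and tested them with DESeq. The strand setting of that counting is not given in these sources. The table lists 45836 genes and a blank line, which was left out, and no column was left unused. DESeq was not used here, so the study's thresholds (adjusted p under 0.05, fold over 1.5, mean normalized count over 10) were applied to edgeR 4.0.16 in R 4.3.3, with filterByExpr, TMM scaling and all 12 libraries fitted together by quasi-likelihood, each genotype with its own mean. Of 15344 genes tested, 15139 were paired with a gene of the WBcel235 annotation, which is newer than the one the authors used, so no coordinates or promoter sequences are given. Normalized counts are counts over effective library size, scaled to the geometric mean of these sizes. Labels and methods name the libraries of a genotype as biological replicates.

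The genes named were the 10 largest increases and 10 largest decreases among called genes with a mean over 100 and no overlap between libraries, the 6 largest of each among those not called and with an adjusted p of 0.05 or more in *eat-2* against wild-type, up to 4 members of each of 51 gene lists with the smallest p-values, *nhr-62*, *eat-2* and the genes the study names, from which those with stable calls or with a role were described. Genes past the adjusted p in *nhr-62* against wild-type were added after their values were seen. The comparison, the lists and their members were chosen with earlier results of these data known. 5 list members matched no gene. Lists are described by counts and medians, with no test of a list. The alternatives were other scalings, DESeq2 1.42.0, a test against a 1.5-fold change, the adjusted p alone, no filter, fits of fewer libraries, a replicate block, and leaving out each of the 6 libraries. In data simulated on 15136 genes for this comparison, 62% of the 100 genes given a 2-fold change and 88% of the 100 given a 4-fold change were found, and 8 of 14936 unchanged genes were called. Libraries of the same genotype differed by more than random sampling of reads would give, so none was counted as a repeat of another, and the spread between libraries, more than depth, sets the precision. A planned search of promoters for motifs was not run, as no promoter sequences were used here.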

Additional observations from a re-analysis of the deposited data

Results flagged for a closer look

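In 12 of the genes that were named and also called with *eat-2*, the log2 fold-change between *nhr-62(tm1818)* and its control with *eat-2* differed from that without *eat-2*, by the interaction term of the edgeR fit (adjusted p under 0.05). Named genes that passed this term without such a call, such as *cyp-29A3* and *fbxa-192*, are not among them. The differences below are the change with *eat-2* minus the change without it. Negative differences were found for *ugt-33* (-4.02), C42D4.3 (-3.0), *col-113* (-2.10), F57A8.6 (-2.08), *fbxa-125* (-1.85) and *ttr-18* (-0.72), which fell in the double mutant and had log2 fold-changes of -0.24, 0.46, -0.03, -0.21, 0.22 and -0.06 without *eat-2*. Positive differences of genes that rose in the double mutant were found for *acdh-2* (3.35), *asp-12* (2.23), *asp-8* (1.94), *tiar-2* (1.43) and *ech-7* (1.42). The difference of *fbxa-193* (2.80) was positive because it fell less with *eat-2*, by 0.84 on the log2 scale, than without it, by 3.64.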

How the results depend on the processing

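No called gene named here changed sign under an alternative, but medians of lists near 0 did under total counts, such as those of autophagy genes (0.05 to -0.06) and elongases (0.08 to -0.04), and that of peroxisomal genes did under size factors (-0.01 to 0.01). Against 833 genes called, 787 were called with DESeq2's size factors, 831 with TMM fitted without yolk and sperm genes and 957 without a filter. With total counts 1472 genes were called (1400 lower, 72 higher), and with the adjusted p alone 1624 (688 higher), 136 of which did not pass in the comparison of *eat-2* with wild-type, where the thresholds used gave 74. A test against a 1.5-fold change called 28 (6 higher, 22 lower), 7 of which did not pass there, and 10 in the interaction, where DESeq2's test called 344 against 40. Leaving out 1 of 6 libraries gave 109 to 578 calls (27 to 127 higher, 82 to 451 lower), 11 to 65 that did not pass there, and 18 to 43 in the interaction. DESeq2's test kept 737 of the 833 calls, the fit without replicate 2 of the double mutant 102. Same-numbered libraries of both genotypes deviated together with correlations of 0.193, -0.214 and 0.3, so they did not meet the criterion for pairing, a correlation over 0.1 in each pair, and not every library correlated best with its own number. With the replicate number as a block 1462 genes were called (173 higher, 1289 lower), 104 of which did not pass there, and 56 in the interaction. Depth limits only rare transcripts, such as *clec-52* and *ugt-34* in the double mutant.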

Other observations

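Of 43 antimicrobial genes tested 2, both lysozymes, were higher in the double mutant (4.65%, against 0.782% of all genes) and none lower. Lysozymes are antibacterial enzymes of the intestine. *ilys-5* was at 6318, 9265 and 8167 normalized counts in *eat-2* and at 12034, 15483 and 15000 in the double mutant, below its 16221 to 19836 in wild-type, and lost its call without replicate 2 of the double mutant (adjusted p = 0.0732, edgeR). *lys-4* was at 6340, 7127 and 6799 and at 9384, 11891 and 13564, with 5740 to 8773 in wild-type and no call in *eat-2* against wild-type (log2 fold-change -0.06, SE 0.18, adjusted p = 0.81, edgeR). Its libraries did not overlap between *eat-2* and the double mutant, but its call was lost without 5 of 6 libraries (adjusted p of 0.052 to 0.0942). The dopamine receptor *dop-4* rose from 40.5, 85.1 and 57.5 to 136, 194 and 141, above the 105 to 133 of wild-type, and lost its call without replicate 2 of the double mutant (adjusted p = 0.0649, edgeR). The called genes *pud-3* and *pud-4*, a pair of related genes, were at 34.6, 50.9 and 40.4 and at 3.58, 5.55 and 6.11 in *eat-2* and at 123, 245 and 238 and at 12.3, 45 and 45.2 in the double mutant. Their wild-type libraries ranged from 168 to 683 and from 35.3 to 108, and both calls were lost without 5 of 6 libraries (adjusted p up to 0.138, edgeR).

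Called genes were spread over the nuclear chromosomes, with none among the 14 mitochondrial genes tested. Over the nuclear chromosomes the share of tested genes called lower ran from 3.26% on X to 5.91% on V, and the share called higher from 0.202% on I to 1.29% on X, given without a test.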
